A study of Mus musculus with 6 samples.

Results

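The *Obox* genes lie side by side on mouse chromosome 7 and encode homeobox proteins, transcription factors that bind DNA through a homeodomain. They are known as a multicopy family that is active in the oocyte and in the early embryo around zygotic genome activation (ZGA), the onset of transcription from the embryo's own genome. The members followed here were *Obox1*, *Obox2*, *Obox3*, *Obox5* and *Obox6*, 5 of 21938 protein-coding genes. They were chosen by name, with earlier results of these data known. Every DPPA4 peak within 50 kb of their gene bodies was taken. This gave 39 of 54642 peaks from GFP-positive cells and 8 of 83602 peaks from GFP-negative cells. DPPA4 is a DNA-binding protein of pluripotent cells that works with DPPA2 and is known as an activator of the 2-cell-like program.

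The cells were mESCs of the line EHMT2-dTAG-mcherry-mervl-gfp, of a BL6/129 hybrid strain, a single line name in the labels of all samples. In this line the histone methyltransferase EHMT2 carries a tag through which dTAG degrades it, and GFP is driven by the MERVL retroviral promoter. All 6 samples were exposed to dTAG for 72 h, so the degrader was present in both populations compared, and an untreated culture was not analysed here. Live cells were sorted into GFP-negative cells, which stand for mESCs, and GFP-positive cells, which stand for 2-cell-like cells (2CLCs). DPPA4 binding was measured by CUT&RUN, in which an antibody directs a nuclease to the bound chromatin, in 2 samples of GFP-negative and 2 samples of GFP-positive cells. An IgG sample of GFP-negative cells and an IgG sample of bulk cells were not used here. Each deposited peak list pools both samples of its group, so no spread between samples could be computed and no difference below carries a p-value. Intervals are Wilson 95% intervals and cover counting error only, and the number of reads behind each list is unknown. No transcript was measured, so the labelled cell types could not be checked against markers.

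In GENCODE vM21 (mm10) the order along chromosome 7 was *Obox2* (ENSMUSG00000074369.12, chr7:15388721-15398545, plus strand), *Obox1* (ENSMUSG00000054310.16, chr7:15388948-15556866, plus strand), *Obox3* (ENSMUSG00000066772.12, chr7:15479825-15639902, minus strand), *Obox5* (ENSMUSG00000074366.9, chr7:15750131-15759800, plus strand) and *Obox6* (ENSMUSG00000041583.8, chr7:15833241-15839678, minus strand). The GENCODE bodies of *Obox1* and *Obox3* span 168 kb and 160.1 kb and overlap each other, whereas the RefSeq bodies of the same genes span 9.59 kb and 14.5 kb. *Obox1* in GENCODE also starts inside *Obox2*. Windows of neighboring genes therefore shared peaks.

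The starts of these genes resemble each other. In RefSeq promoter sequences (GRCm38.p6, from 250 bases before to 50 bases after the annotated start), an identical stretch of 42 bp was found in *Obox1*, *Obox3*, *Obox5* and their relative *Obox7*. It includes a TATA box-like run of letters. These promoters are shown because the same start sequence recurs while a DPPA4 peak was listed over 1 of them. The shared stretch is in capitals and each sequence is written along the strand of its gene.
Obox1 (chr7:15547007-15547306, plus strand): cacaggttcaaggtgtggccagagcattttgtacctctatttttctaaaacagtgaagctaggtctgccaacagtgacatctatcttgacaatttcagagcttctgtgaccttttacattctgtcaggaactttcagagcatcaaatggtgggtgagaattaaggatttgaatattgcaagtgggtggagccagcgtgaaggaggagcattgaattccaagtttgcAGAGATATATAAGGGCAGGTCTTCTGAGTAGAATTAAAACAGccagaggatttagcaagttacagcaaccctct
Obox3 (chr7:15639728-15640027, minus strand): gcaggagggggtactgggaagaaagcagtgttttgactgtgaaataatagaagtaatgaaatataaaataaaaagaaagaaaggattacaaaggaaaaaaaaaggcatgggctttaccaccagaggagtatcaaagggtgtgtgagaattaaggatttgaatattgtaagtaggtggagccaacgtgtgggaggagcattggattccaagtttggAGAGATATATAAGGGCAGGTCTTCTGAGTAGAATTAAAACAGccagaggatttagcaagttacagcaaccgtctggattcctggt
Obox5 (chr7:15750120-15750419, plus strand): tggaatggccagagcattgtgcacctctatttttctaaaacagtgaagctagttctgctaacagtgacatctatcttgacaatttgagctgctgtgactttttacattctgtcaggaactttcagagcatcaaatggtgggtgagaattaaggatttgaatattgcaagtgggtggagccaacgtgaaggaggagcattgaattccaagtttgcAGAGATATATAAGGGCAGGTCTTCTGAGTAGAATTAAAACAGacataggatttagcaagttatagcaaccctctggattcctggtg
Obox7 (chr7:14659458-14659757, plus strand): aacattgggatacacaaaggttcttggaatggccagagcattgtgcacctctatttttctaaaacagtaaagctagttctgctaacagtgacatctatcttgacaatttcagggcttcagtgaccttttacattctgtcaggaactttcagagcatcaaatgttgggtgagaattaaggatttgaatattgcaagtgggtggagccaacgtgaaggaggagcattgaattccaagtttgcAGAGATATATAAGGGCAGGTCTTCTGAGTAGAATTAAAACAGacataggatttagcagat

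Of the 5 members, 4 had an entry among these promoter sequences. The entry of *Obox2* ends ahead of its copy of the stretch, which lies at chr7:15388924-15388965, and *Obox6* had no entry. Over both strands of chromosomes 1 to 19, X and Y the stretch occurred 19 times, all on chromosome 7, and 4 of 32851 RefSeq promoters held it (0.0122%). Of these 19 sites, 1 lay in a GFP-positive peak, the one at *Obox5*, and 0 lay in a GFP-negative peak.

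To compare occupancy between the cell populations, a GFP-negative and a GFP-positive peak with 1 bp or more in common were joined as a common region, and the remaining peaks made up the GFP-positive-specific and the GFP-negative-specific class. Within 50 kb of the 5 genes there were 40 regions, of which 32 were GFP-positive-specific and 7 were common, with a single GFP-negative-specific one (1 of 40). GFP-positive-specific regions thus made up 80.0% of the locus (65.2 to 89.5%), against 18.4% of all 99695 regions (18.1 to 18.6%). All 5 members had more GFP-positive-specific regions than regions of the other classes together, as did 7.13% of the 20579 protein-coding genes with any region within 50 kb. All 5 had a GFP-positive-specific region in reach, as 59.9% of protein-coding genes did. A common region was in reach of 4 of them (86.1% of genes) and a GFP-negative-specific region of 1 (78.4% of genes). At *Obox2* all 9 regions were GFP-positive-specific. *Obox1* had 12 GFP-positive-specific and 2 common regions, and *Obox3* had 15 and 4. *Obox6* had 11 GFP-positive-specific and 2 common regions. *Obox5* had the fewest, 5 GFP-positive-specific regions and 1 of each other class. Of the 40 regions, 16 were counted for more than one gene, and the members are not independent of each other. Many regions also resemble each other in sequence, so the interval, which takes regions as independent, may be too narrow.

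**Figure D1:**
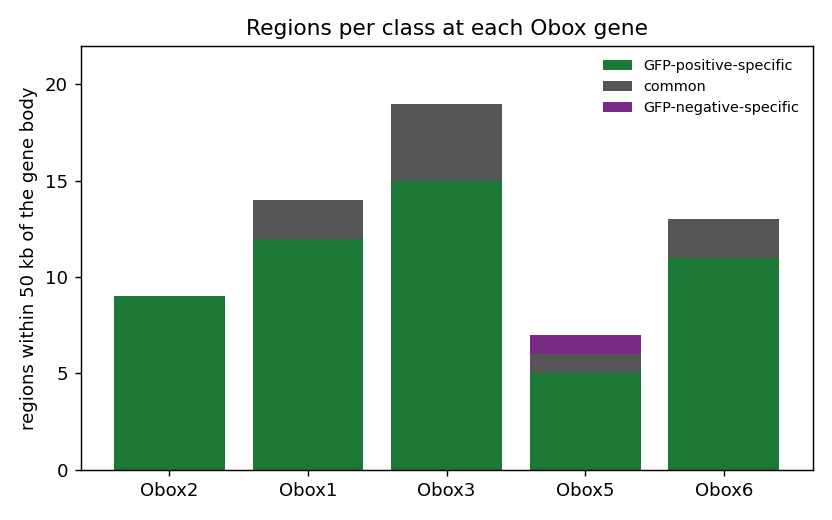
Bars give the number of regions within 50 kb of the GENCODE body of each Obox gene, stacked by class (green, GFP-positive-specific; gray, common; purple, GFP-negative-specific). GFP-positive-specific regions are the largest share at each gene, from 5 of 7 at Obox5 to 9 of 9 at Obox2, and regions near several genes appear in more than one bar.

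In terms of sequence covered, GFP-positive peaks took up 5.39% of the 540.7 kb around the genes, against 2.10% of all chromosomes. GFP-negative peaks took up 0.700% of the same windows, against 2.53% of all chromosomes. There were 0.721 GFP-positive and 0.148 GFP-negative peaks per 10 kb at the locus, and 0.200 and 0.307 over all chromosomes. The locus was therefore denser than the genome in the GFP-positive list and sparser than the genome in the GFP-negative list.

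**Figure D2:**
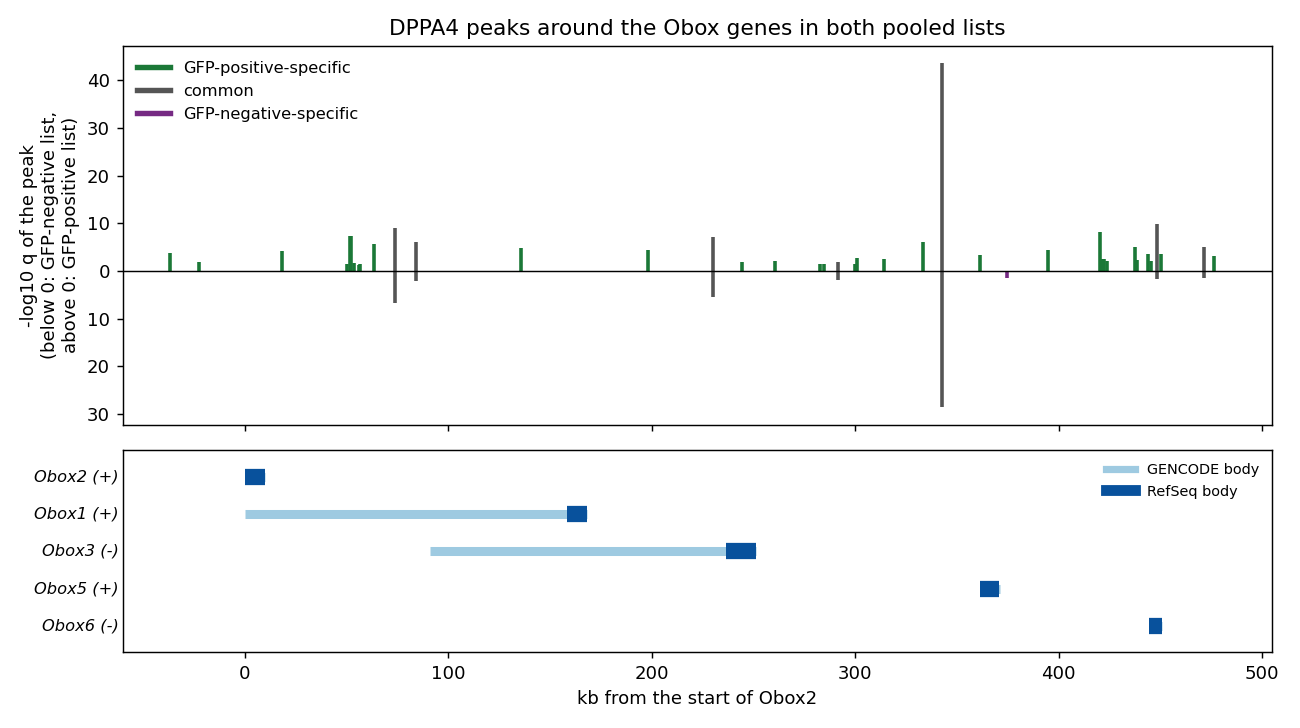
Upper panel, each line is a DPPA4 peak within 50 kb of an Obox gene at its distance from the start of Obox2 (kb), with its -log10 q drawn upward for the GFP-positive list and downward for the GFP-negative list, colored by region class; lower panel, gene bodies in GENCODE (light) and RefSeq (dark). Lines below 0 are few (8 peaks, against 39 above), and a single common region, 18.4 kb upstream of Obox5, exceeds the others in both lists with -log10 q of 43.6 and 28.6.

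Counting the members against all genes, *Obox3* had more GFP-positive-specific regions within 50 kb than 99.3% of protein-coding genes, *Obox1* than 98.7%, *Obox6* than 98.3%, *Obox2* than 96.6% and *Obox5* than 86.8%. The median gene had 1 such region. Long windows hold more regions, so the same was computed per 100 kb of window. On that scale *Obox6* led with 10.3 regions per 100 kb, above 99.1% of genes, followed by *Obox2* with 8.19, *Obox3* with 5.77, *Obox5* with 4.56 and *Obox1* with 4.48. The values of *Obox5* and *Obox1* were close to each other and exceeded 91.2% and 90.9% of genes.

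Promoters, taken as 2.5 kb upstream to 0.5 kb downstream of any annotated start, separated the members. A GFP-positive-specific region had its summit at the promoter of *Obox5* and *Obox6*, 2 of 5 members, against 8.55% of 21938 protein-coding genes. *Obox1*, *Obox2* and *Obox3* had no peak summit of either list at any of their starts, and no peak touched those windows. Counting the peaks of each list, 2 of 5 promoters had a GFP-positive peak, against 59.5% of protein-coding genes, and 0 of 5 had a GFP-negative peak, against 67.7%. Common regions were thus at 0 of 5 promoters and at 57.1% of those of all protein-coding genes, and GFP-negative-specific regions at 0 of 5 and at 23.5%. With only peaks of -log10 q of at least 5, 0 of 5 members had a promoter peak.

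At *Obox5* the GFP-positive peak spanned chr7:15749262-15750789 (1528 bp). Its summit lay 659 bp upstream of the nearest start and the peak covered all 3 annotated starts as well as the shared 42 bp stretch. Its fold enrichment was 4.47 and its -log10 q 3.46, stronger than 50.5% of the GFP-positive list. No GFP-negative peak overlapped it. The nearest GFP-negative summit to a start of *Obox5* lay 13051 bp downstream, in a peak of 185 bp with -log10 q of 1.47, which is the only GFP-negative-specific region of the locus.

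At *Obox6* the promoter peak spanned chr7:15838883-15839764 (882 bp), with its summit 245 bp downstream of the start in an intron, and the peak covered the start. Its fold enrichment was 4.58 and its -log10 q 3.67, stronger than 53.1% of the list. It was the last of a row of GFP-positive peaks that covered 86.5% of the *Obox6* body, a higher share than in 98.7% of protein-coding genes. The broadest and strongest of them spanned chr7:15835772-15838679 (2908 bp), with a fold enrichment of 7.08 and -log10 q of 9.94. This peak overlapped the only GFP-negative peak in the gene body, chr7:15837632-15838112 (481 bp), with a fold enrichment of 3.21 and -log10 q of 1.69. Counted over its whole window, *Obox6* had 13 GFP-positive and 2 GFP-negative peaks, which covered 12.2% and 0.836% of the sequence. GFP-positive peaks covered 6.81% of the *Obox5* body, 3.70% of *Obox1*, 1.68% of *Obox3* and 0% of *Obox2*, so *Obox6* had the highest share. The *Obox5* share came from its promoter peak alone. For *Obox1* and *Obox3* it refers to the long GENCODE bodies, so the bodies compared are unlike. The *Obox6* body is short (6.44 kb), and its rank among protein-coding genes was not adjusted for body length.

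*Obox2* had 9 GFP-positive and 0 GFP-negative peaks, all of them in its flanks. The GFP-positive summit nearest to one of its starts was 16838 bp downstream, and the strongest peak, chr7:15440034-15440518, had a fold enrichment of 5.06 and -log10 q of 7.38. The 6 GFP-positive-specific regions around the pseudogene *Obox4-ps28* were among these 9 peaks, 49032 to 55149 bp from the nearest start of *Obox2*. The strongest peak and its neighbors also lay in the long GENCODE body of *Obox1*, in an intron. *Obox1* had 11 GFP-positive and 2 GFP-negative peaks in this body. Its strongest peak in both lists was at 1 place, chr7:15462080-15462674 in GFP-positive cells with -log10 q of 8.97 and chr7:15462302-15462690 in GFP-negative cells with 6.68. The nearest summits to a start of *Obox1* were 12004 bp downstream in the GFP-positive list and 39344 bp upstream in the GFP-negative list.

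*Obox3* shared that strongest peak with *Obox1*. The nearest GFP-positive summit, 5131 bp upstream of one of its starts, belonged to a weak peak of 320 bp with -log10 q of 1.93. In the GFP-negative list the nearest was a peak of 161 bp, 9188 bp downstream of a start, with -log10 q of 5.49. Whether these peaks belong to a gene body depended on the gene models. With RefSeq bodies, an alternative chosen after seeing the data, *Obox1* had 2 regions within 50 kb in place of 14 and *Obox3* had 9 in place of 19. The bodies of *Obox1*, *Obox2* and *Obox5* then held no region summit, while *Obox2*, *Obox5* and *Obox6* had as many regions as with GENCODE.

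The genes with and without a promoter peak also differed in how much of their sequence is unique. Of the stretches of 31 bases (31-mers) in a start site window, the share that occurred a single time in the genome was 94.8% at *Obox6* and 55.0 to 56.0% at the 3 starts of *Obox5*. It was 18.9 to 23.5% at the 5 starts of *Obox3*, 0 to 2.86% at the 6 starts of *Obox1* and 0 to 1.45% at the 4 starts of *Obox2*. Over the 3001 bp around the shared stretch, from 2.5 kb upstream to 0.5 kb downstream, *Obox1* and *Obox2* were 100% identical. *Obox5* was 92.7% identical to both of them, and *Obox3* was 56.0 to 56.3% identical to these 3 when aligned end to end. The authors placed each read with several matches at 1 place, so reads from the start of *Obox1* and from the start of *Obox2* cannot be told apart, and what this did to the missing peaks was not tested.

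**Figure D3:**
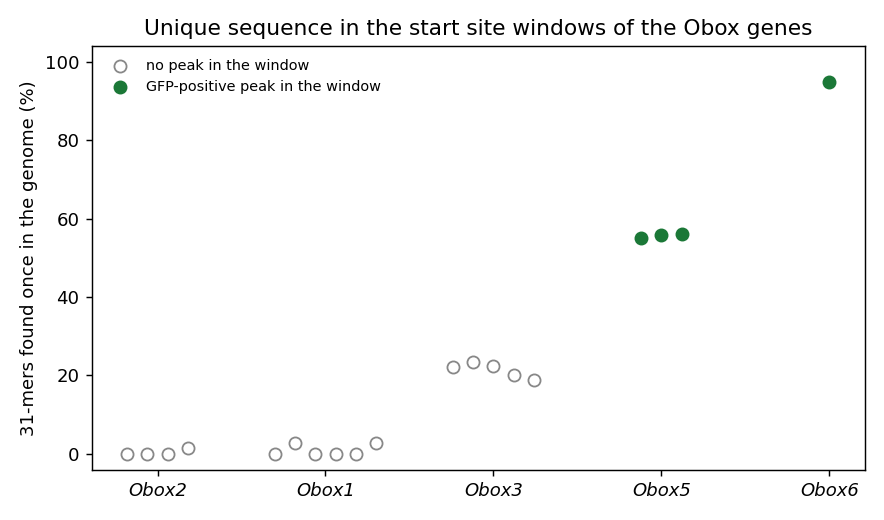
Each point is the 3001 bp window at 1 annotated start of an Obox gene, with the percent of its 31-mers that occur a single time in the genome; filled points have a GFP-positive peak in the window. Both genes with a peak lie at 55.0% or more, and the windows of the other 3 genes lie at 23.5% or less.

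All 1528 bp of the *Obox5* promoter region aligned with *Obox1*, *Obox2* and *Obox7* at 85% identity or more, its summit included, while 20.4% aligned with *Obox3*. Between 50 kb before *Obox8* and 50 kb after *Obox6* (chr7:14281436-15889678), the region had 11 copies of at least 50% of its length. Of these, 1 had a GFP-positive peak, at *Obox5* itself, 0 had a GFP-negative peak and 10 had neither. At 85% identity over at least 100 bp, the *Obox5* promoter region aligned with 3 other regions of this span, all GFP-positive-specific. Together with regions linked through these, they made a group of 11 regions, all of them GFP-positive-specific. The *Obox6* promoter region had a single copy there, its own.

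Across the locus, the classes differed in the kind of sequence that they held. As a measure of copy number, the median genome-wide count of the 31-mers in the 200 bp around the summit was taken. Among the 32 GFP-positive-specific regions, 8 had a copy number of 1, 19 had 2 to under 30 and 5 had 30 or more. Of the 7 common regions, 6 had 30 or more and 1 had a copy number of 1, and the GFP-negative-specific region had 238. Every one of the 19 regions of 2 to under 30 copies was GFP-positive-specific, and so were 43 of 43 such regions in the rest of the extended cluster. Many of these regions are similar in sequence, and reads with several matches were placed at random, so they are not independent observations. Over all chromosomes this class of copy number had 2801 GFP-positive-specific regions among 6507 (43.0%). With only summits of copy number 1, 8 regions were GFP-positive-specific and 1 was common (88.9% GFP-positive-specific). All of these lay within reach of *Obox5* or *Obox6* only, so this share does not cover *Obox1*, *Obox2* and *Obox3*. Over all chromosomes, 15.3% of GFP-positive-specific regions, 5.67% of the common ones and 3.72% of the GFP-negative-specific ones had a copy number of 2 to under 30, against 59.4% of the GFP-positive-specific regions here.

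**Figure D4:**
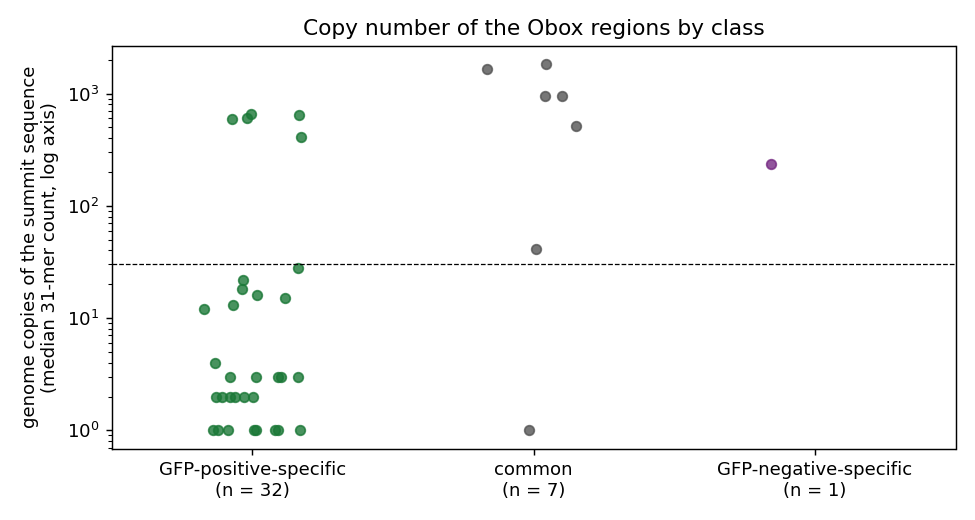
Each point is 1 of the 40 regions near the Obox genes, with the copy number of its summit sequence on a log axis and its class along the x axis; points are spread sideways for visibility and the dashed line marks 30 copies. GFP-positive-specific regions fill the range from 1 to 28 copies with 5 above the line, whereas 6 of 7 common regions lie above it.

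The common regions were also richer in G and C. Their median GC content was 59.1% and all but 1 of them were 92.3% or more repeat-masked (median 100%), while the GFP-positive-specific regions had a median GC content of 44.4% and were 30.6% masked. Over all chromosomes the GC medians were 59.8% in common and 49.8% in GFP-positive-specific regions, whereas the masked share was lower in common regions, 14.0% against 37.6%. In the 301 bp around the summit, the median number of CG pairs was 11 in common and 2 in GFP-positive-specific regions. Over all chromosomes the CG medians were 14 and 5. All 7 common regions had a higher -log10 q in the GFP-positive list than in the GFP-negative list (median 7.09 and 2.14), which held for 25.9% of all common regions. The lists have unknown depths and backgrounds of their own, so these values do not compare amounts of DPPA4.

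The strongest region of the locus was common. It lay 18.4 kb upstream of *Obox5* at chr7:15730787-15732579, with fold enrichments of 17.3 in GFP-positive and 13.1 in GFP-negative cells and -log10 q of 43.6 and 28.6. That exceeded 98.3% of the GFP-positive list and 91.9% of the GFP-negative list. By blastn (85% identity over at least 100 bp) it belonged to a group of 6 regions of the extended cluster, of which 5 were common, 1 was GFP-negative-specific and 0 were GFP-positive-specific. By contrast, the largest group held 22 regions and all of them were GFP-positive-specific. Its strongest region near the members, at chr7:15440034-15440518, had 17 similar regions, and 21 copies of its sequence lay in the extended cluster, of which 18 had a GFP-positive peak and 0 had a GFP-negative peak. The 101 bases around the summits of both kinds are shown on the plus strand of mm10 with CG pairs in capitals, to set the common beside the GFP-positive-specific kind.
Strongest common region (chr7:15731672-15731772): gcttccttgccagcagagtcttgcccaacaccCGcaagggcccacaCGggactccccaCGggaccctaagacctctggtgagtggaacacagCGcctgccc
Common region of the same group (chr7:15618534-15618634): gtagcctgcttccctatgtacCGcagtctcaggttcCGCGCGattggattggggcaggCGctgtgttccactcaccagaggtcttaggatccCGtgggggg
Strongest region of the largest group within 50 kb of the members (chr7:15440345-15440445): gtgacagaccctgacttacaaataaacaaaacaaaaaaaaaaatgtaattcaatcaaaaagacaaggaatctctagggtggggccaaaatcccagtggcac
Obox5 promoter summit (chr7:15749422-15749522): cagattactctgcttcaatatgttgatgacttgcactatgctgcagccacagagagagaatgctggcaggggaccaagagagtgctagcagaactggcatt

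The common pair held 4 and 6 CG pairs at 65.3% and 61.4% GC, and the other 2 held none at 37.6% and 48.5% GC. The DUX motif TGATTNAATCA, searched on both strands in the 301 bp around each summit, was found in 0 of the 40 regions and in 0.202% of all GFP-positive-specific regions. TAATCC, the core that homeodomains of the OTX type recognize, was found on either strand in 5 of 32 GFP-positive-specific regions (15.6%) and in 16.7% of all GFP-positive-specific regions. Bases shared by both motifs were counted for each.

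In the annotation 55 genes and pseudogenes carry an *Obox* symbol, the 5 members included. GFP-positive-specific regions were in reach (50 kb) of 54 of them and at the promoter of 14, a common region at the promoter of 1 and a GFP-negative-specific region at the promoter of 0. Of protein-coding genes, 59.9% had a GFP-positive-specific region in reach and 8.55% had one at the promoter. A common region was at 57.1% of their promoters and a GFP-negative-specific region at 23.5%. No such share was computed over pseudogenes, which make up most of the 55. Around all 55 there were 101 regions, of which 86 were GFP-positive-specific, 12 were common and 3 were GFP-negative-specific. Over all chromosomes, 18.4% of regions were GFP-positive-specific. The others with a region at the promoter were, by position, *Obox8*, *Obox4-ps5*, *Obox4-ps38*, *Obox4-ps12*, *Obox4-ps16*, *Obox4-ps17*, *Obox4-ps19*, *Obox4-ps22*, *Obox4-ps23* and *Obox4-ps28*, followed by *Obox4-ps29* and *Obox4-ps33* and by *Obox4-ps35*, which is annotated as a long intergenic RNA. All but *Obox4-ps38*, which had a common region, had GFP-positive-specific regions there. The *Obox3* pseudogenes on chromosome 7 had none at 7 promoters, where the share of protein-coding genes is 8.55%. Which *Obox4* pseudogenes were named depended in part on the promoter limit of 2.5 kb. A summit of *Obox4-ps22* at -2493 bp from its start fell inside it. Summits of *Obox4-ps13* (-2502 bp), *Obox4-ps20* (-2527 bp), *Obox4-ps14* (-2548 bp), *Obox4-ps15* (-2553 bp) and *Obox4-ps18* (-2563 bp) fell just outside. The names therefore do not show that these pseudogenes differ in binding.

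On the plus strand, neighboring *Obox4* pseudogenes from *Obox4-ps12* to *Obox4-ps23* and from *Obox4-ps27* to *Obox4-ps29* (15 in all) started 11079 to 11369 bp apart. In these units 13 of 15 had a GFP-positive-specific region and 0 had a region of another class. All 33 regions of the units were thus GFP-positive-specific, as were 18.4% of all regions over all chromosomes. How often other windows of this size hold a GFP-positive-specific region was not computed. A summit lay between 2318 and 2667 bp upstream of the pseudogene start in 11 of the 15 units, a window chosen after the values were seen. The -log10 q of these summits ranged from 1.37 to 7.38. *Obox4-ps28*, which lies inside the GENCODE body of *Obox1*, had the most regions (6) and both of the strongest, with -log10 q of 7.38 and 7.34. As the units are near-copies of each other, a peak in 1 of them does not show which unit was occupied, and the units are not independent observations.

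**Figure D5:**
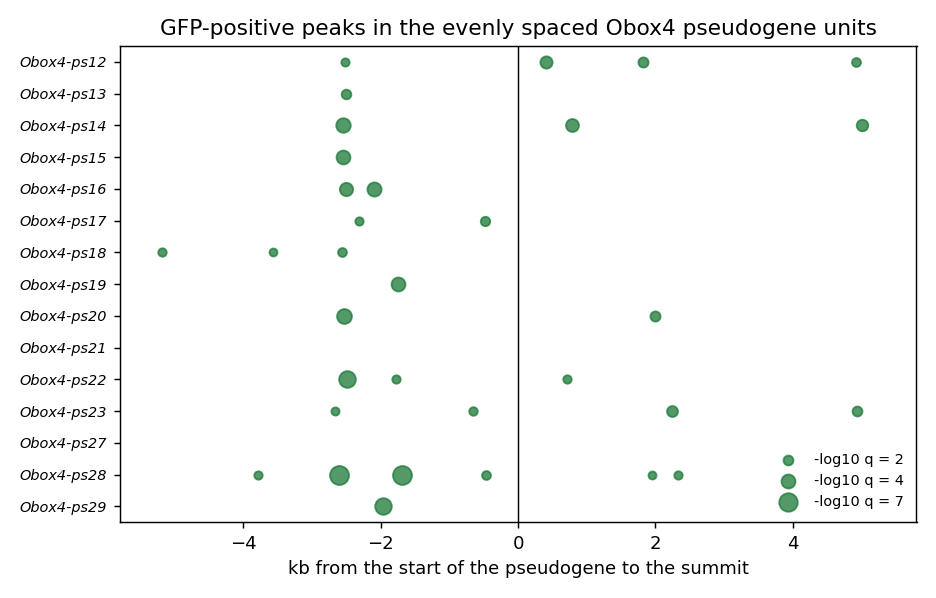
Each row is 1 of the 15 evenly spaced Obox4 pseudogenes in their order along the chromosome, and each point the summit of a GFP-positive-specific region at its distance from the pseudogene start (kb), with an area in proportion to its -log10 q. Summits recur about 2.5 kb upstream of the start in 11 of 15 units, and 2 units have none.

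Among genes over 100 kb away from the cluster, those whose counts within 50 kb came closest to the mean of the 5 members (10.4 GFP-positive-specific regions with 1.8 common and 0.2 GFP-negative-specific ones) were *Ctdspl2*, *Gm13040*, *BC147527*, *Tram1* and *Casp8*. Their Euclidean distances to that mean were 0.490 to 0.917 regions, and they had 10 or 11 GFP-positive-specific regions each. *Ctdspl2* and *Tram1* had a common region at their promoter and no GFP-positive-specific one, whereas *BC147527* and *Casp8* had 2 GFP-positive-specific regions there and *Gm13040* had 1 common and 1 GFP-positive-specific region.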

How the data were processed

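DPPA4 CUT&RUN was measured in 4 samples (2 per population), and 2 IgG samples were not used. As the methods state, the authors trimmed reads with bbduk, aligned them with STAR (2.7.10) in a mode that writes 1 random best place for a read with many matches, removed duplicates with Picard (2.26.0) and blacklisted reads with SAMtools (1.14), converted fragments with bedtools (2.30.0), and called peaks on mm10 with MACS2 (2.2.6). Whether IgG served as control for these calls was not stated. Reads of repeated sequence are thereby divided among its copies, and a peak there cannot be tied to 1 copy. The deposited lists give, per pooled group, a display score, a fold enrichment (ratio over local background), −log10 of the p-value and of the q-value, and the summit position. The lowest −log10 q was 1.30. Score and p-value were not used further.

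Peaks of the 2 lists were merged at 1 bp of overlap. Promoter, body and flank were assigned by summit, with GENCODE vM21. Copy numbers came from 31-mers of GRCm38.p6, in which no peak ran past a chromosome end, and similarity from blastn (2.17.0). Class, window and copy-number code was tested on simulated data. No test was run, since each group has 1 list. The members and gene lists were chosen with earlier results of these data known. Named peaks were, per member and list, the one with the highest −log10 q and the one nearest a start. Other *Obox* genes were to be named if a region lay at the promoter, at most 10 by position, and the remaining ones were named as well. The 5 most alike genes were taken by Euclidean distance, at most 1 per megabase. Alternatives were stricter q filters, equal list lengths, other overlap rules, distances, promoter widths and k-mers, single-copy summits and RefSeq bodies. Per-sample depth is unknown. Tools were numpy (2.4.6), numba (0.67.0), statsmodels (0.14.6) and matplotlib (3.10.9).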

Additional observations from a re-analysis of the deposited data

How the results depend on the processing

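No paired analysis was possible because each list pools the replicates of its group and no value per replicate was used. The share of GFP-positive-specific regions ranged from 70.0 to 92.3% over the alternatives. With −log10 q of at least 2, there were 4 common and 0 GFP-negative-specific regions and 4 GFP-negative peaks, and 5.4% of genes had a GFP-positive-specific promoter region and 5.43% a majority of such regions. With at least 5, there were 7 GFP-positive-specific regions, 3 common and 0 GFP-negative-specific ones, 10 GFP-positive and 3 GFP-negative peaks, 0 members with a promoter peak, and shares of 2.67% and 4.04% of genes. With lists of equal length, 92.3% of regions were GFP-positive-specific, with 3 common and 0 GFP-negative-specific regions, 3 GFP-negative peaks and 11.8% and 13.7% of genes. An overlap of 50% of the shorter peak gave 9.17% of genes at the promoter, and summits within 200 bp gave 2 GFP-negative-specific regions and 20.8% and 8.15% of genes. Within 20 kb there were 18 GFP-positive-specific regions and 23 GFP-positive peaks, and within 100 kb 11 common and 3 GFP-negative-specific regions, 14 GFP-negative peaks and a majority in 6.76% of genes. With single-copy summits there were 8 GFP-positive-specific regions, 1 common and 0 GFP-negative-specific ones, 9 GFP-positive and 1 GFP-negative peaks, 1 member with a GFP-positive and 0 with a GFP-negative peak in the body, and 7.4% and 4.75% of genes. The single-copy regions all lay near *Obox5* or *Obox6*. A promoter of 1 kb on both sides gave 5.98% of genes. RefSeq bodies, chosen after seeing the data, left 1 member with a GFP-negative peak in the body. Fewer peaks or genes enter under the stricter settings by construction, and other causes were not tested. Copy numbers over 1 were found at 31 regions, and at 26 with 51-mers and 32 with whole regions. Of 120 alternative values, 80 stayed within 1.5 times the reported count or within the interval of the reported share. Unknown read depth limits all counts of missing peaks.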

Other observations

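At the promoters of 2 other multicopy families of the 2-cell-like program, *Usp17l* and *Zscan4*, the same counts were made as for *Obox*. Of 7 protein-coding *Obox* genes in the annotation, 3 had a GFP-positive-specific region at the promoter, *Obox5*, *Obox6* and *Obox8*. The same was true of 5 of 5 *Usp17l* genes, which encode ubiquitin proteases (*Usp17la* to *Usp17le*), and of 0 of 5 *Zscan4* genes, which encode zinc finger proteins (*Zscan4b* to *Zscan4f*), against 8.55% of all protein-coding genes. None of these 17 genes had a common or GFP-negative-specific region at the promoter, against 57.1% and 23.5% of all protein-coding genes. Genes within a family share sequence, and the difference between families was not tested.

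A pair of *Obox* pseudogenes, *Obox3-ps8* and *Obox6-ps1*, lies on chromosome 17. Around them there were 10 regions within 50 kb, 7 GFP-positive-specific, 2 GFP-negative-specific and 1 common, and none at the promoters. GFP-positive-specific regions lay near 1 of the 2 and GFP-negative-specific regions near both, against 59.9% and 78.4% of protein-coding genes.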
